A study of Mus musculus with 8 samples.

Results

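A/J, an inbred laboratory mouse strain, was compared with 7 other inbred strains in 5 cell populations of the striatum. Its nuclei were those that carried a cluster annotation and an RNA-based strain call of A/J in the deposited table, 9835 of 55672 annotated nuclei, with 1761, 4416, 1757 and 1901 of them in batches 1 to 4. The study read nuclear RNA and open chromatin from the same nuclei (10x Multiome) in the striatum of 32 mice aged 12 weeks, with 1 mouse of every strain in each of 4 batches whose nuclei were pooled before loading. The strains on the other side of the comparison were 129S1/SvImJ, C57BL/6, CAST/EiJ, NOD/ShiLtJ, NZO/H1LtJ, PWK/PhJ and WSB/EiJ, of the same age and tissue, and the labels name no treatment or engineered allele for any mouse. The deposited table and the series text give different substrains of C57BL/6, so the strain is named here without one. The series text gives 4 males and 4 females for every batch without saying which mouse was which. Y-linked transcripts were present in the A/J mice of batches 2 and 4, and Xist in those of batches 1 and 3. Over all strains 18 of the 32 mice had Y-linked transcripts in most Drd1+ nuclei, 5 of 8 in batches 1 and 2 and 4 of 8 in batches 3 and 4, among them all 4 NOD/ShiLtJ mice and 2 of 4 in each other strain. Raw counts were added up over the nuclei that 1 mouse gave to 1 cluster, and each such sum is called a library here. Every cluster thus had 4 A/J libraries and 28 others. The 5 clusters held 8604 A/J nuclei (511 macrophages, 890 astrocytes, 2102 oligodendrocytes, 2300 Drd2+ and 2801 Drd1+ neurons) and 39446 nuclei of the other strains.

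Drd1+ and Drd2+ projection neurons are the output cells of the striatum and carry its direct and indirect pathways, marked by the peptides substance P and dynorphin on one side and enkephalin on the other. Oligodendrocytes wrap axons in myelin, astrocytes clear transmitter and supply metabolites, and brain macrophages are mostly microglia. A/J is known as an albino strain that carries loss-of-function alleles of Hc, which encodes complement component C5, and of Dysf, which encodes the muscle membrane repair protein dysferlin, and an allele of Cdh23 linked to hearing loss with age. CAST/EiJ, PWK/PhJ and WSB/EiJ are derived from wild mice, and CAST/EiJ and PWK/PhJ belong largely to other subspecies than the classical laboratory strains.

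The sums held 2827430 to 9416810 counts in the A/J libraries of Drd1+ neurons and 1710450 to 4849820 in the others, and were lowest in macrophages, with 102501 to 365425 counts in A/J and 27325 to 175390 in the others. The A/J mouse of batch 2 stood apart with 4416 annotated nuclei, while the other mice of that batch had 1373 to 1806, and counts without it are given beside each cluster. Of 84906 different barcode sequences, 4344 occurred in more than 1 batch, and of the 9785 sequences held by annotated A/J nuclei 507 did. Each cluster's own markers were present in A/J at levels that overlapped those of the other strains. The 10 projection neuron markers summed to 4758 to 5375 CPM (counts scaled to a library of 1000000) in A/J Drd1+ neurons against 3813 to 5594 in the others. The 21 oligodendrocyte markers summed to 32379 to 39001 CPM against 31694 to 45217 in oligodendrocytes, and the 22 astrocyte markers to 33599 to 36229 against 32283 to 42442 in astrocytes. The 22 microglia markers summed to 15902 to 23541 CPM against 15362 to 36112 in macrophages. The mean was higher in A/J at 6 of the 10 projection neuron markers in Drd1+ neurons and 6 of the 21 oligodendrocyte markers in oligodendrocytes. It was higher at 3 of the 22 astrocyte markers in astrocytes and 6 of the 22 microglia markers in macrophages. These counts were not tested. The 8 strains of a batch shared a lane, so free RNA from 1 strain could reach droplets of another, and its part in the levels was not tested.

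In Drd1+ neurons 1417 genes were higher and 894 lower in A/J than in the mean of the other strains, of 13431 tested. A call means an adjusted p under 0.05 in edgeR's quasi-likelihood test with Benjamini-Hochberg adjustment, with strain and batch in the fit. All adjusted p values below come from it unless a permutation test is named. The share called was 17.2%, with 10.6% higher and 6.66% lower, and 224 of the higher and 137 of the lower genes differed by 2-fold or more. The fold changes set A/J against the mean of the 7 strains' log2 levels, so a gene can be called while 1, 2 or more strains are near A/J. A/J had the highest mean of all 8 strains at 719 of the 1417 higher genes (50.7%) and the lowest at 527 of the 894 lower genes (58.9%), against 9.41% and 8.99% of all genes tested. Called genes were picked for their distance from the others' mean, so shares above those of all genes are partly built in. When the 7 strains were fitted as 1 group, so that the spread between them counted as error, 194 genes were called. Without the A/J mouse of batch 2 the count was 1585, without all of batch 1 it was 1522 and without all of batch 2 1466. A stricter view took genes whose 4 A/J libraries all lay outside the range of the other 28: 51 genes (0.38%), 39 above and 12 below.

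Genes from that stricter set are described first. Those higher in A/J included signalling and transcription genes. Insyn2b, a relative of the inhibitory synapse factor INSYN2A, measured 24.6, 28.9, 26.3 and 26.2 CPM in the A/J libraries and 0.326 to 13.6 CPM (median 2.45) in the others, a log2 fold change of 3.26 ± 0.24 (SE; edgeR adjusted p = 2.29e-10). The A/J libraries lay together and above all others, and the next strain was NZO/H1LtJ with a mean of 10.3 CPM. Dock2, a Rac guanine nucleotide exchange factor used mainly by blood cells, measured 14.3, 13.9, 11.3 and 10.5 CPM in A/J and 0.396 to 6.95 CPM (median 1.33) in the others, a log2 fold change of 2.83 ± 0.24 (edgeR adjusted p = 6.6e-12). RefSeq places Insyn2b (chr11:34314822-34422642, GRCm38) inside Dock2 (chr11:34226815-34783905), and since the strand of counting is not given in the sources used here, reads of these genes may not be told apart. In macrophages, which express Dock2 strongly, A/J was not set apart at either gene: Dock2 measured 811 to 905 CPM in A/J and 645 to 1707 CPM in the others, with a log2 difference of -0.22 ± 0.11 (edgeR adjusted p = 0.295), and that of Insyn2b was -0.01 ± 0.21 (adjusted p = 0.999). Styk1, a receptor-like kinase, measured 14.5, 8.92, 9.55 and 15.7 CPM in A/J and 0 to 6.31 CPM (median 1.43) in the others, a log2 fold change of 2.94 ± 0.22 (edgeR adjusted p = 9.06e-15). PWK/PhJ was the closest strain at Styk1, with a mean of 5.19 CPM.

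Genes that every strain expressed also set A/J apart. Commd7, a COMM domain protein of the endosomal Commander complex, measured 32.1, 25.4, 29.7 and 33.5 CPM in A/J and 6.94 to 17.1 CPM (median 11.9) in the others, a log2 fold change of 1.37 ± 0.11 (edgeR adjusted p = 1.32e-13). The 7 other strains were close to one another at Commd7, with means of 8.68 to 12.8 CPM. Mitf, a transcription factor of pigment cells and of lysosome genes, measured 162, 137, 122 and 128 CPM in A/J against 30.7 to 94.8 CPM (median 53.5), a log2 fold change of 1.32 ± 0.12 (edgeR adjusted p = 3.72e-08). Col11a2, a fibrillar collagen chain, was higher by 1.28 ± 0.11, with 31.0 CPM in batch 3 and 20.4 to 21.7 CPM in the other A/J mice. The pseudogene Mindy4b-ps (log2 fold change 1.95) and the predicted genes Gm47515 (1.92) and Gm50169 (1.81) met the same rule.

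**Figure D1:**
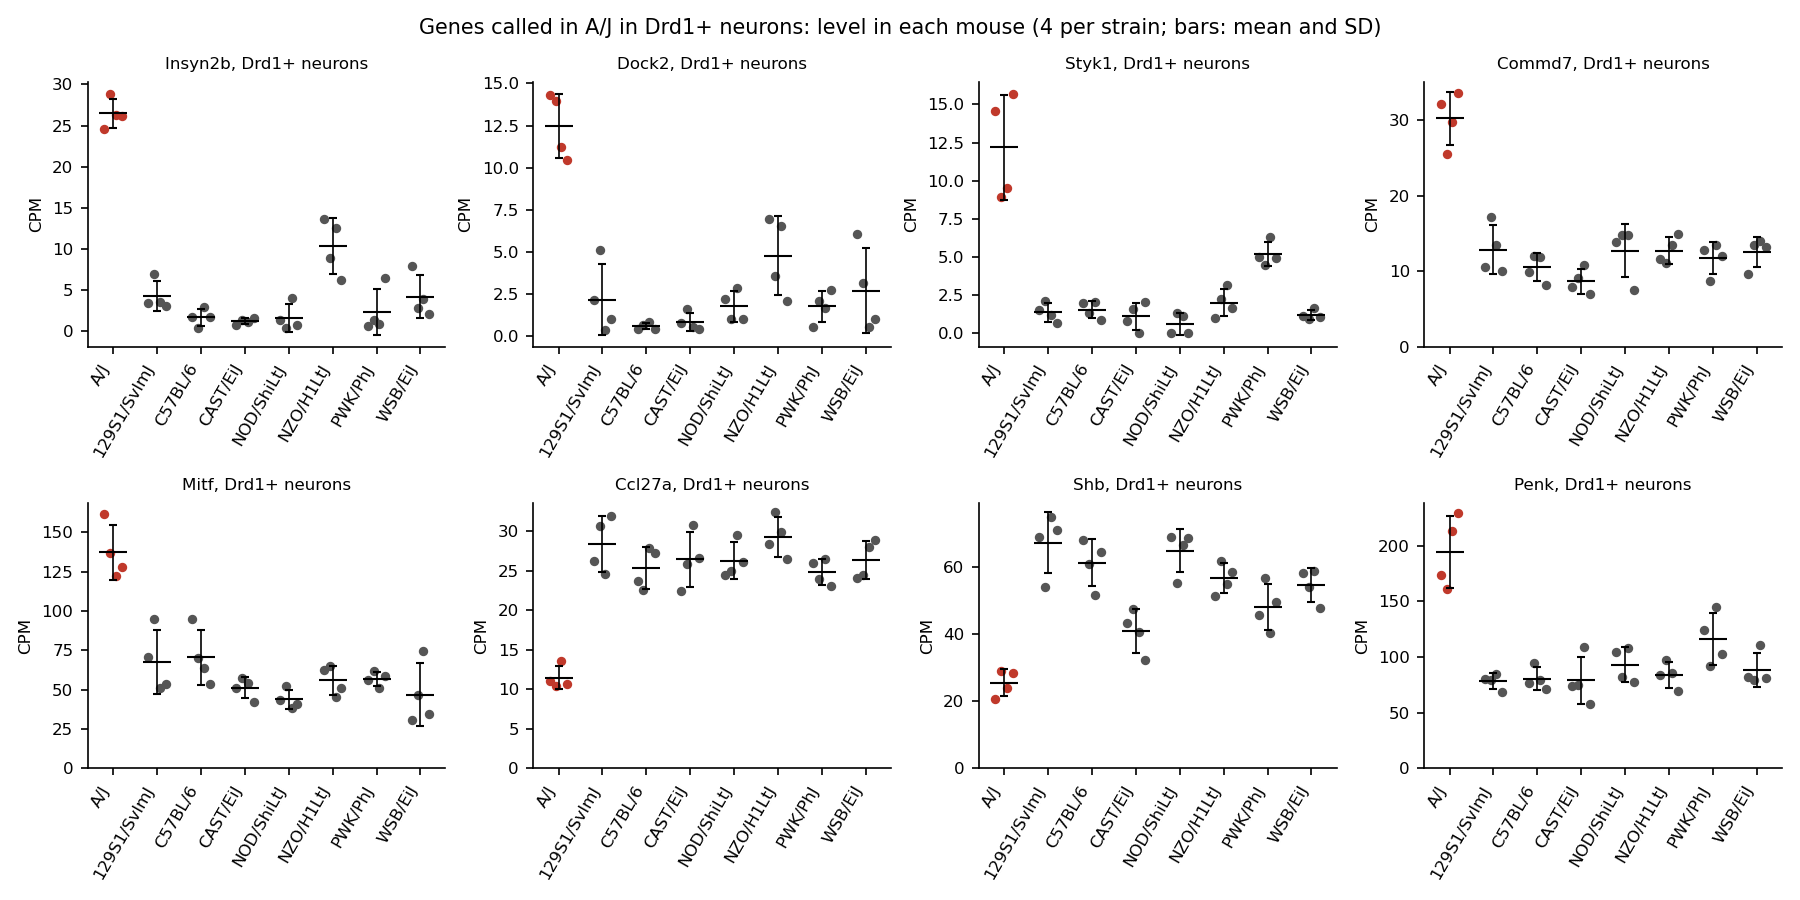
Levels in CPM (y axis, linear) of 8 genes in Drd1+ neurons, 1 point per mouse, by strain (x axis; A/J in red), with the mean and SD of the 4 mice of each strain. The A/J points lie above those of all other mice for Insyn2b, Dock2, Styk1, Commd7, Mitf and Penk and below them for Ccl27a and Shb.

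The promoter of Commd7 is printed because its transcript was higher in the neurons of A/J, and those of Ctsc and Nnat because theirs were higher in A/J oligodendrocytes and lower in A/J astrocytes. They are RefSeq sequences of GRCm38.p6, 250 bases before to 50 after an annotated start, read 5′ to 3′ on the gene's strand; that reference is C57BL/6J, so no A/J variant is shown. Capitals mark a match, on either strand, to the TATA box letters TATAAA, the CCAAT box letters CCAAT or the GC box letters GGGCGG.
Commd7: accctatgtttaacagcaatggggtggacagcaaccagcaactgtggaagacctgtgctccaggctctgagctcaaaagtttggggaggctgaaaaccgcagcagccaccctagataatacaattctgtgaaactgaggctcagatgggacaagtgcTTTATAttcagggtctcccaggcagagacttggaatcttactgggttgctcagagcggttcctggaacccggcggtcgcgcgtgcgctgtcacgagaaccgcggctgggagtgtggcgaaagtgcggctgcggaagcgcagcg
Ctsc: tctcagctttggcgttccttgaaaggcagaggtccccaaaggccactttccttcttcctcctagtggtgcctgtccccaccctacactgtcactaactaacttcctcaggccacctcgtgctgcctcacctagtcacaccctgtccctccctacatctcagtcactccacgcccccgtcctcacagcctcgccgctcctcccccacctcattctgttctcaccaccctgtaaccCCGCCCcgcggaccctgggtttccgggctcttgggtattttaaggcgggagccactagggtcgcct
Nnat: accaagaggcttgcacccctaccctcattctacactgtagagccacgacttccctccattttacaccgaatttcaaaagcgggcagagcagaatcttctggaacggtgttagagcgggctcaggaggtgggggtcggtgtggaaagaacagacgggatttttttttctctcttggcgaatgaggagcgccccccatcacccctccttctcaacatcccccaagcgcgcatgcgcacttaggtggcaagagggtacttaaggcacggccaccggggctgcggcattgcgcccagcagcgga
The windows are chr2:153632732-153633031 on the minus strand for Commd7, chr7:88277835-88278134 on the plus strand for Ctsc and chr2:157559828-157560127 on the plus strand for Nnat. Commd7 holds TATAAA, Ctsc holds GGGCGG, and none of the 3 motifs is in the Nnat window. Of the 32851 promoter windows in the table, 13.6% hold TATAAA, 37.4% CCAAT and 35.7% GGGCGG. Each of the 3 windows overlaps 1 deposited accessible region, as 53.1% of all windows overlap at least 1; the regions were called on nuclei of all strains together and say nothing of A/J itself.

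Among the lower genes in Drd1+ neurons, Ccl27a, a skin chemokine gene with a second, nuclear product, measured 11, 10.5, 13.6 and 10.7 CPM in A/J and 22.4 to 32.4 CPM (median 26.3) in the others, a log2 fold change of -1.23 ± 0.10 (edgeR adjusted p = 1.78e-13). The 7 other strains were alike there, with means of 24.9 to 29.3 CPM. Ccl27a (chr4:41769467-41774225) overlaps Il11ra1, Mitf overlaps Gm15531, and Ttc39b and Cog1 overlap further genes, so their reads may have been divided between genes. Shb, an adaptor of tyrosine kinase receptors, measured 20.6, 29.1, 23.9 and 28.5 CPM in A/J and 32.3 to 74.8 CPM (median 56.0) in the others, a log2 fold change of -1.10 ± 0.10 (edgeR adjusted p = 4.96e-12). In macrophages Shb was called in the other direction, higher in A/J by 1.27 ± 0.30 (edgeR adjusted p = 0.00219). It measured 104 to 157 CPM in A/J macrophages and 0 to 129 CPM in the others. Zfp566, a zinc finger gene, measured 3.51 to 3.93 CPM in A/J and 4.51 to 18.4 CPM in the others, a log2 fold change of -1.39 ± 0.20. Ttc39b, which is linked to cholesterol handling, had a log2 fold change of -0.85 ± 0.09, and Cog1, a subunit of a Golgi tethering complex, one of -0.70 ± 0.11. Amer2, a regulator of Wnt signalling, followed with -0.58 ± 0.11 and Rev3l, the catalytic subunit of DNA polymerase zeta, with -0.27 ± 0.05. Rev3l had the smallest fold change of the group, and its A/J libraries still lay apart, at 118 to 137 CPM against 139 to 173 CPM. Of the genes with other symbols, 6430590A07Rik measured 7.02, 6.47, 4.43 and 6.28 CPM against 11.2 to 41.1 CPM (log2 fold change -2.03 ± 0.14), and Gm48091 was lower at -1.03.

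Neighbouring genes were examined with 3 tested genes on each side. Next to Styk1 (chr6:131299133-131353836), Magohb, a core part of the exon junction complex 5.89 kb away, was also higher in A/J, with a log2 fold change of 1.10 (edgeR adjusted p = 2.7e-07), and Ybx3 on the other side was lower at -0.33. Next to Zfp566 (chr7:30077337-30090510), the zinc finger genes Zfp82 and Zfp260, each within 5 kb, were lower too, at -0.88 and -0.50, although the call for Zfp82 was lost with the 7 strains as 1 group (adjusted p = 0.12). Around Commd7 only Mapre1 was called, at -0.27. Near Shb (chr4:45423276-45530828), Slc25a51 was lower at -0.41, and on the other side Tmod1 was lower at -0.20 and Tstd2 higher by 0.34. Across the autosomes and X, 13% (chromosome 15) to 21.6% (chromosome 4) of tested genes were called.

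Glo1, the glyoxalase that detoxifies methylglyoxal, was higher in A/J by 0.69, and 5 of the 6 tested genes around it were also called higher. The exception was Zfand3 (log2 difference 0.14, edgeR adjusted p = 0.0698), and over all genes tested in Drd1+ neurons 10.6% were called higher. Glp1r, also near Glo1, passed the filter on low counts there only with its A/J libraries, so its call adds no weight to that count. In Drd1+ neurons Btbd9, a gene tied to restless legs syndrome, measured 443, 406, 403 and 381 CPM in A/J and 175 to 524 CPM (median 199) in the others, a log2 fold change of 0.77 ± 0.05. The ranges overlapped: CAST/EiJ averaged 483 CPM, 129S1/SvImJ lay between at 308 CPM, and the other 5 strains averaged 185 to 212 CPM. Dnah8, a dynein heavy chain, measured 5.12 to 8.28 CPM in A/J, 21.5 CPM on average in CAST/EiJ and at most 2.65 CPM in the other strains. Glp1r, the receptor of glucagon-like peptide 1, did not follow CAST/EiJ: it measured 9.03, 7.58, 6.14 and 3.67 CPM in A/J (136 counts) and 1.97 CPM in 129S1/SvImJ, while the mean was at or under 0.11 CPM in the other 6 strains. All 28 other libraries together held 28 Glp1r counts, so the fitted fold depends on the prior count and none is given. With the 7 strains as 1 group, the calls of Glo1, Btbd9 and Dnah8 in Drd1+ neurons were lost (adjusted p of 0.0557, 0.203 and 0.784).

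Lists of genes with known roles in projection neurons had medians of 0.02 to 0.10 in Drd1+ neurons, beside a median log2 difference of 0.00 over all genes tested. The share called was 36.8% for identity genes, 37.5% for synaptic adhesion, 31.8% for glutamate receptors, 28.6% for GABA receptors and 31.8% for voltage-gated channels, beside 17.2% over all genes (10.6% higher, 6.66% lower). These shares, and those of the lists below, are a description. The lists were not tested, and their genes were not matched to the other genes by level. Of 38 tested projection neuron identity genes 11 were higher and 3 lower (median 0.09), and without the A/J mouse of batch 2 the counts were 8 and 2. Eya1, a transcriptional coactivator, was higher by 0.96 ± 0.13, with 49.2, 62.8, 37.2 and 52.9 CPM in A/J and 3.07 to 45.2 CPM in the others, and lost its call with the 7 strains as 1 group (adjusted p = 0.303). Of 32 synaptic adhesion genes 12 were higher and 0 lower (median 0.09), 9 and 0 without that mouse. Cntnap2, a neurexin relative that places potassium channels along axons, was among them at 0.37 ± 0.05, a call just lost with the 7 strains as 1 group (adjusted p = 0.0512). Of 22 glutamate receptor genes 6 were higher and 1 lower (median 0.10), led among the higher genes by Gria4, an AMPA receptor subunit, at 0.38 ± 0.05. Of 14 GABA receptor genes 3 were higher and 1 lower (median 0.06): the receptor subunit gene Gabrg3 was higher by 0.66 ± 0.04 and Gabbr2, a GABA-B receptor subunit, lower at -0.37 ± 0.08. The calls of Gria4, Gabrg3 and Gabbr2 were lost with the 7 strains as 1 group (adjusted p of 0.169, 0.42 and 0.131). Voltage-gated channels were split, with 8 of 44 higher and 6 lower (median 0.02).

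For the metabolic, immune, lysosomal, activity and astrocyte lists that follow, the share called in Drd1+ neurons ran from 0% for antigen presentation, 4.44% for nuclear genes of oxidative phosphorylation and 4.55% for astrocyte markers to 18.2% for lipid and cholesterol synthesis, beside 17.2% over all genes. Those of lysosome genes (16.7%), interferon-induced genes (16.7%) and mitochondrial transcripts (15.4%) were near that background. Of 45 nuclear genes of oxidative phosphorylation 2 were higher and 0 lower (median -0.03), and of 13 mitochondrial transcripts 0 were higher and 2 lower (median -0.12). Without the A/J mouse of batch 2 the counts were 1 and 0 for the first list and 0 and 1 for the second. The share of mitochondrial counts in Drd1+ libraries was 1.05% to 1.49% in A/J and 1.14% to 1.77% in the others. That share adds up the mitochondrial transcripts themselves, so it is not a measure separate from the second list. Immediate early genes, which respond to neuronal activity, had a median of -0.61 with 0 of 16 higher and 2 lower, and -0.50 with 0 and 0 called without the A/J mouse of batch 2. Of 18 lysosome genes 1 was higher and 2 lower, 0 and 1 without that mouse. Man2b1, the lysosomal alpha-mannosidase, measured 10.0, 9.81, 9.21 and 14.1 CPM in A/J and 10.8 to 34.4 CPM (median 22.9) in the others, a log2 fold change of -1.03 ± 0.12 (edgeR adjusted p = 5.81e-09). Of 22 lipid and cholesterol synthesis genes 3 were higher and 1 lower; Elovl6, a fatty acid elongase, was higher by 0.45 ± 0.10. Of the 22 astrocyte markers 1 was called, Bmpr1b, a BMP receptor, higher by 1.69 ± 0.27 while the markers' sum was 1785 to 2103 CPM in A/J and 1598 to 2282 CPM in the others. Of 8 tested antigen presentation genes 0 were called, and of 6 interferon-induced genes 1 was lower.

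Set against each strain in turn, A/J Drd1+ neurons had the fewest calls against 129S1/SvImJ and C57BL/6. The calls numbered 672 higher and 589 lower against 129S1/SvImJ (9.39% of genes tested), 657 and 633 against C57BL/6 (9.6%), 874 and 803 against NOD/ShiLtJ (12.5%), 1051 and 883 against NZO/H1LtJ (14.4%), and 1063 and 938 against WSB/EiJ (14.9%). Against the wild-derived CAST/EiJ they numbered 2162 higher and 2012 lower (31.1%), and against PWK/PhJ 2274 and 1977 (31.7%). These 7 comparisons share the 4 A/J libraries and are not independent of one another, and the differences between the counts were not tested. The build named for the processing, GRCm38, is of C57BL/6J, and the part of read mapping in the calls between strains was not tested. Acp1, a low-weight protein tyrosine phosphatase, shows how a strain group enters the contrast: A/J, 129S1/SvImJ and C57BL/6 averaged 106, 116 and 113 CPM and the other 5 strains 15.3 to 31.1 CPM. Psat1, an enzyme of serine synthesis, grouped the strains otherwise, with 74.7 CPM in A/J, 74.8 in NOD/ShiLtJ and 91.3 in WSB/EiJ and 9.36 to 14.1 CPM in the other 5. The calls of Acp1 and Psat1 were lost with the 7 strains as 1 group (adjusted p of 0.377 and 0.387).

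**Figure D2:**
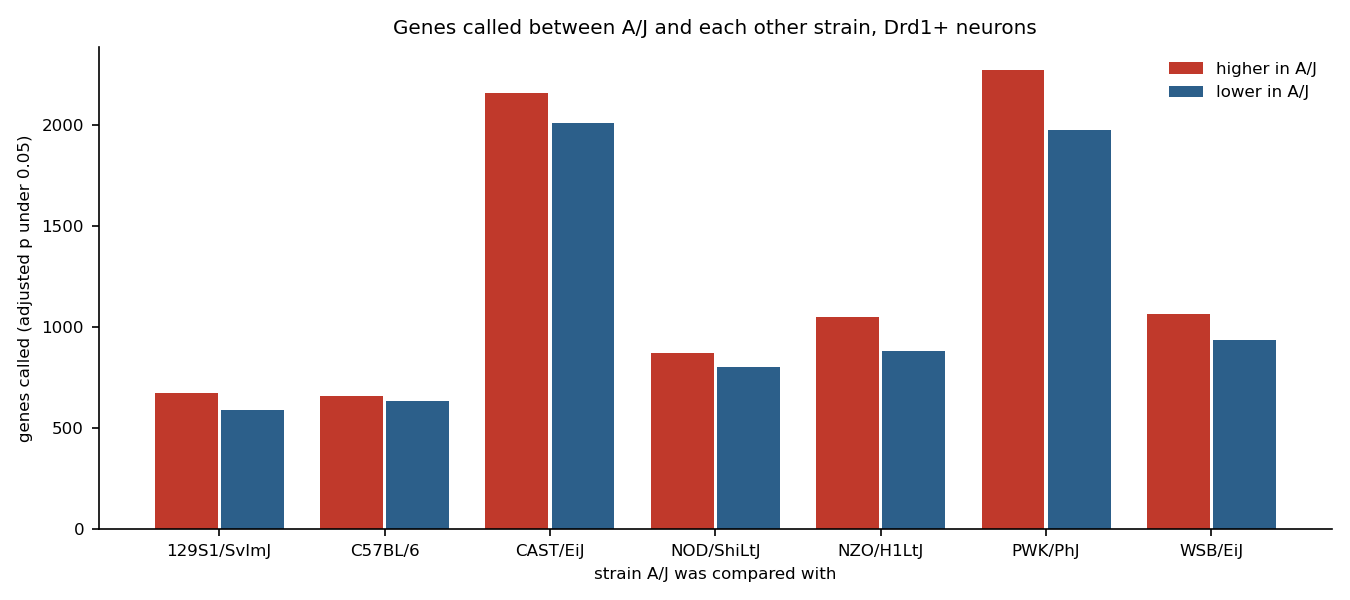
Number of genes called in Drd1+ neurons (y axis, linear) between A/J and each of the 7 other strains (x axis), higher in A/J in red and lower in blue. The bars are tallest for CAST/EiJ and PWK/PhJ, between 1977 and 2274, and lowest for 129S1/SvImJ and C57BL/6, between 589 and 672.

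In Drd2+ neurons 1164 of 12799 tested genes were higher in A/J (9.09%) and 786 lower (6.14%), 15.2% in all. Calls numbered 1296 without the A/J mouse of batch 2, 1170 without all of batch 2 and 145 with the 7 strains as 1 group. The 4 A/J libraries lay outside the range of the others at 34 genes (0.266%), 27 above and 7 below. Insyn2b measured 41.7, 47.3, 42.2 and 40.1 CPM in A/J and 0 to 25.4 CPM (median 5.06) in the others, a log2 fold change of 2.91 ± 0.15 (edgeR adjusted p = 4.31e-18). Epha10, a member of the Eph receptor family, measured 52.6, 44.4, 54.2 and 60.8 CPM in A/J and 3.43 to 34.8 CPM (median 21.0) in the others, a log2 fold change of 1.55 ± 0.11; it overlaps 1700125G02Rik. Dock2 (2.68 ± 0.17), Mitf (1.65 ± 0.14) and Commd7 (1.35 ± 0.13) were also above the range of the others. Mei1, a gene of meiotic recombination, was the furthest lower gene, with 2.47, 4.74, 2.39 and 1.70 CPM in A/J and 6.41 to 18 CPM (median 12.3) in the others, a log2 fold change of -1.93 ± 0.20 (edgeR adjusted p = 1.24e-10). Josd1, a deubiquitinase, measured 15.9 to 21.7 CPM in A/J and 22.5 to 55.3 CPM in the others, and was lower at -0.71 ± 0.12. Ccl27a (-1.29 ± 0.13) and Ttc39b (-0.98 ± 0.10) were also below it. Of the lists, synaptic adhesion had 8 of 32 genes higher and 0 lower (median 0.12), glutamate receptors 8 of 22 higher and 1 lower (median 0.07), voltage-gated channels 10 of 44 higher and 8 lower (median 0.01), and projection neuron identity 7 of 38 higher and 2 lower (median 0.08). Without the A/J mouse of batch 2 the adhesion counts were 7 and 0, the glutamate receptor counts 4 and 0, the channel counts 10 and 6, and the identity counts 5 and 1. Gabbr2 was lower at -0.54 ± 0.09. Immediate early genes had 0 of 16 higher and 3 lower (median -0.58), and 0 called without the A/J mouse of batch 2.

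The A/J difference itself differed between Drd2+ and Drd1+ neurons at 83 of 13791 genes tested (0.602%), 30 more positive and 53 more negative in Drd2+ neurons, and at 45 without the A/J mouse of batch 2 or 46 without all of batch 2. Penk (chr4:4133536-4138815), the enkephalin precursor that marks Drd2+ neurons, was one of them. In Drd1+ neurons it measured 173, 161, 213 and 230 CPM in A/J and 58.0 to 145 CPM (median 82.1) in the others, a log2 fold change of 1.16 ± 0.09 (edgeR adjusted p = 1.38e-10). The A/J libraries all lay above the others there, while in Drd2+ neurons, at 776, 660, 1456 and 1056 CPM against 712 to 1978 CPM (median 1138), they overlapped and the difference was -0.35 ± 0.07 (edgeR adjusted p = 0.000421, and 0.472 without the batch as a block). Other markers of Drd2+ neurons were compared in the same Drd1+ libraries. Adora2a, an adenosine receptor, averaged 8.85 CPM in A/J and 10.9 in the others (log2 difference -0.26 ± 0.14), Gpr6 5.85 and 6.17 CPM (-0.07 ± 0.19), and Drd2 14.4 and 11.5 CPM (0.32 ± 0.21). None of these 3 was called. A830012C17Rik (chr4:4148030-4181846) passed the filter in Drd1+ neurons only with the A/J libraries, so its level there is a description. It measured 4.51, 8.14, 4.78 and 10.5 CPM in A/J. In Drd2+ neurons it was not called (-0.28 ± 0.12). In the interaction fit it averaged 6.92 CPM in A/J and 1.28 CPM in the others in Drd1+ neurons. In Drd2+ neurons these means were 17.8 and 21.6 CPM. The interaction was -2.81 ± 0.23 on the log2 scale (edgeR adjusted p = 5.03e-19) and rests on low Drd1+ levels. A830012C17Rik lies close to Penk on chromosome 4, and whether their differences are separate was not tested. Hs3st4, a heparan sulfate sulfotransferase, was lower in both, at -0.36 ± 0.07 and -0.82 ± 0.10, with an interaction of -0.48 ± 0.05. Without the block the Drd1+ call (adjusted p = 0.0576) and the interaction (0.289) were lost. The ferritin pseudogene Ftl1-ps1 was called in Drd2+ neurons, at 0.80 ± 0.10, with an interaction of 1.15 ± 0.15. That call was lost with the 7 strains as 1 group (adjusted p = 0.443), and its reads may come from the near-identical Ftl1.

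**Figure D3:**
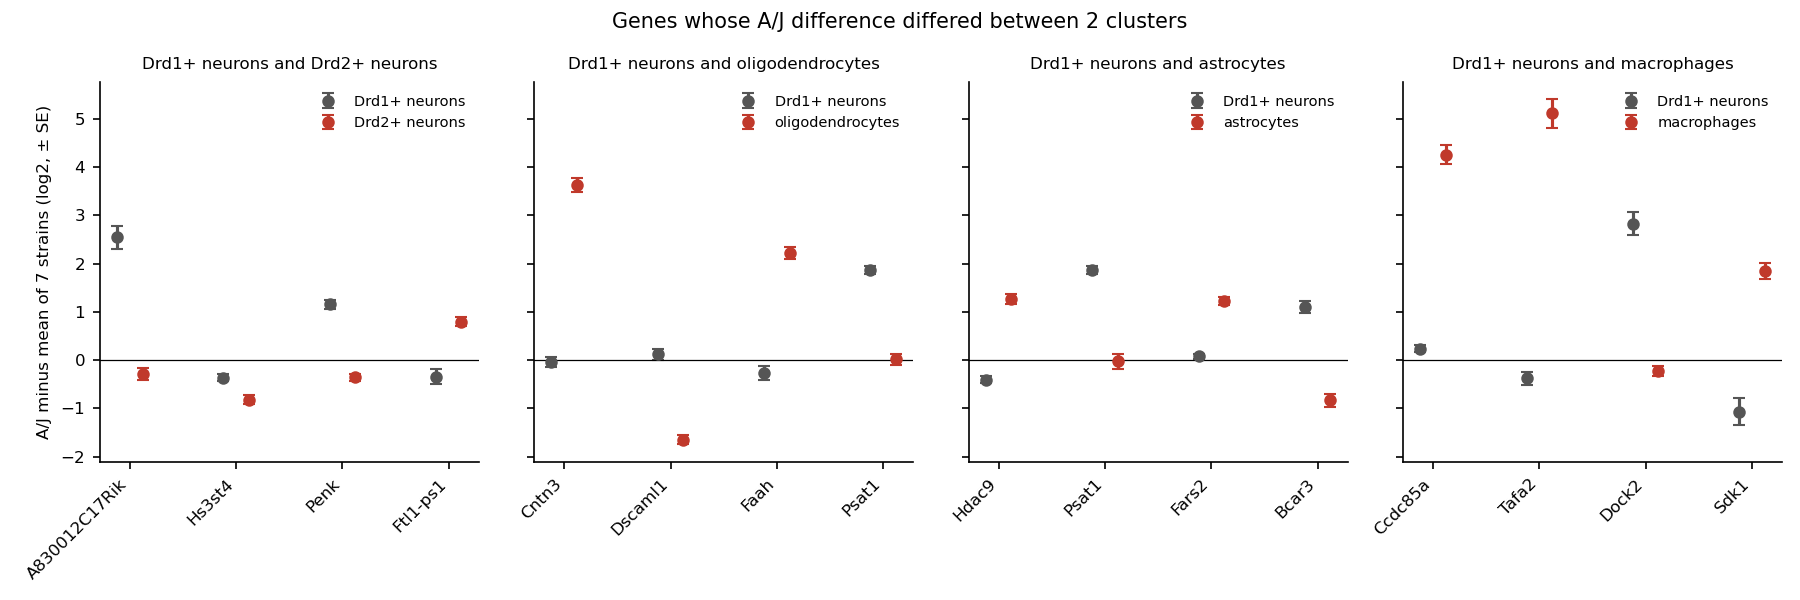
A/J difference from the mean of the 7 other strains (y axis, log2, with SE) of the 4 genes with the smallest interaction p in each test, in Drd1+ neurons (grey) and in the other cluster of the panel (red). Penk is above 0 in Drd1+ neurons and below it in Drd2+ neurons; Cntn3, Faah, Ccdc85a and Tafa2 lie further from 0 in the glial cluster than in Drd1+ neurons.

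In oligodendrocytes 469 of 9082 tested genes were higher in A/J (5.16%) and 258 lower (2.84%), 8.0% in all. Calls numbered 502 without the A/J mouse of batch 2, 484 without all of batch 2 and 44 with the 7 strains as 1 group. At 22 genes (0.242%) the 4 A/J libraries lay outside the range of the others, 16 above and 6 below. Ctsc, the lysosomal protease cathepsin C, measured 23.5, 38.4, 37.1 and 42.8 CPM in A/J (134 counts) and 0 to 8.32 CPM (median 0.457) in the others (25 counts in 28 libraries). Ctsc, Sdk2 and Trp53cor1 passed the filter on low counts only with their A/J libraries, so their levels are a description and no fitted fold or test is given. In macrophages, where Ctsc is abundant, A/J was within the others' range, with 237 to 327 CPM against 155 to 506 CPM (log2 difference 0.10 ± 0.17, not called). The microglia markers summed to 210 to 253 CPM in A/J oligodendrocyte libraries and 174 to 300 CPM in the others. Sdk2, a sidekick cell adhesion molecule, measured 65.0, 65.8, 65.5 and 56.6 CPM in A/J and 0 to 23.6 CPM (median 6.58) in the others. Smoc1, a calcium-binding matrix protein, measured 54.2, 44.4, 48.0 and 57.9 CPM in A/J and 0 to 20.7 CPM (median 6.98) in the others, a log2 fold change of 3.05 ± 0.23 (edgeR adjusted p = 3.3e-21). NZO/H1LtJ was the closest strain at Smoc1 with a mean of 19.1 CPM, and C57BL/6 at Sdk2 with 14.3 CPM. Sdk2 and Smoc1 overlap other annotated genes. The long noncoding RNA Trp53cor1 held 156 counts in the A/J libraries and 75 in the other 28. Eya2 measured 34.3, 30.2, 50.2 and 35.2 CPM in A/J, above all other libraries. Whether Eya2 passed the filter without its A/J libraries was not examined, so no fitted fold is given. Faah, which degrades the endocannabinoid anandamide, measured 146, 125, 186 and 159 CPM in A/J and 6.08 to 73.9 CPM (median 31.6) in the others, a log2 fold change of 2.22 ± 0.13 (edgeR adjusted p = 8.73e-28). In Drd1+ neurons Faah did not set A/J apart, with 7.07 to 8.53 CPM against 5.54 to 21.6 CPM.

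**Figure D4:**
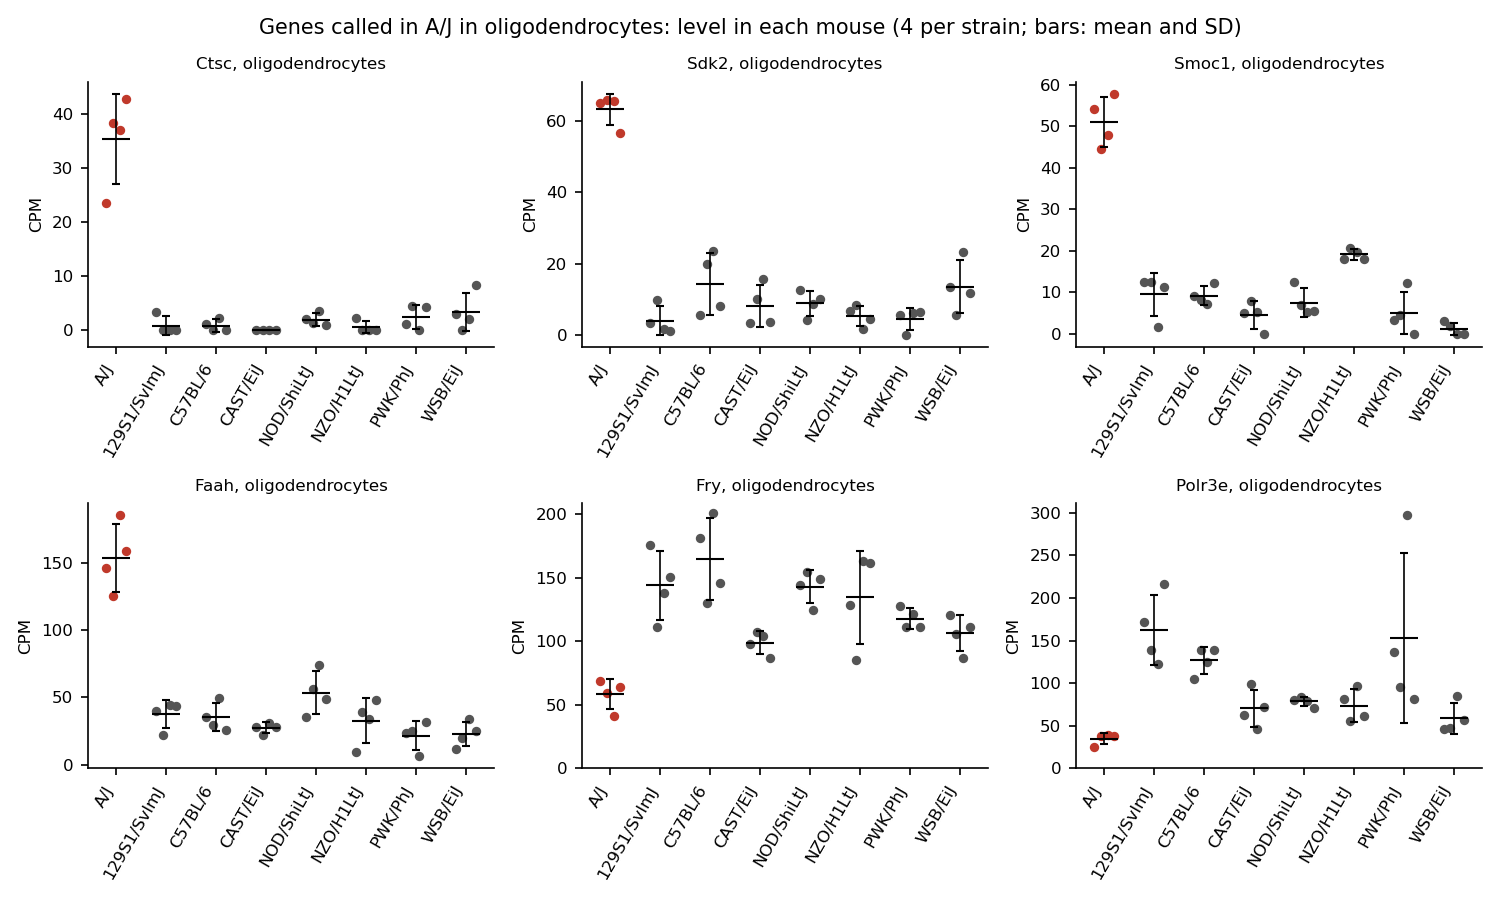
Levels in CPM (y axis, linear) of 6 genes in oligodendrocytes, 1 point per mouse, by strain (x axis; A/J in red), with the mean and SD of the 4 mice of each strain. The A/J points lie above all others for Ctsc, Sdk2, Smoc1 and Faah and below all others for Fry and Polr3e.

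Of the genes called in A/J oligodendrocytes, 63 of the 258 lower and 129 of the 469 higher ones differed by 2-fold or more. Fry, a furry-family microtubule-binding protein, measured 68.6, 59.2, 41.5 and 64.2 CPM in A/J and 85.1 to 201 CPM (median 126) in the others, a log2 fold change of -1.08 ± 0.13 (edgeR adjusted p = 1.8e-11). Ccp110, a centriole cap protein, measured 135, 193, 190 and 233 CPM in A/J and 270 to 572 CPM (median 371) in the others, a log2 fold change of -0.99 ± 0.09. Heatr3, a factor of ribosome assembly, was lower at -1.01 ± 0.13, Polr3e, an RNA polymerase III subunit, at -1.38 ± 0.24 and the protocadherin Pcdh11x at -0.99 ± 0.13. Polr3e and Pcdh11x lost their calls with the 7 strains as 1 group (adjusted p of 0.0873 and 0.0854). Of 21 oligodendrocyte markers 1 was higher and 2 lower (median -0.04). Aspa, the enzyme that splits N-acetylaspartate, was the higher one at 0.38 ± 0.06, and the myelin gene Mobp was lower at -0.30 ± 0.07, a call that did not hold against the 5 strains other than CAST/EiJ and PWK/PhJ (adjusted p = 0.111). Of 18 glutamate receptor genes 2 were higher and 3 lower, and of 9 GABA receptor genes 0 were called. The share called was 14.3% for the oligodendrocyte markers and 27.8% for the glutamate receptor genes, beside 8.0% over all genes (5.16% higher, 2.84% lower), with no test of the lists. Among the lower receptor genes was the kainate receptor gene Grik1 at -1.33 ± 0.14. With the 7 strains as 1 group the calls of Aspa, Mobp and Grik1 were lost (adjusted p of 0.26, 0.57 and 0.275).

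The A/J difference in oligodendrocytes differed from that in Drd1+ neurons at 554 of 13943 genes (3.97%), 279 more positive and 275 more negative, and at 300 without the A/J mouse of batch 2 or 292 without all of batch 2. Cntn3, a contactin of the immunoglobulin family, was higher in A/J oligodendrocytes by 3.63 ± 0.14 and not called in Drd1+ neurons (-0.03 ± 0.10), an interaction of 3.67 ± 0.14 (edgeR adjusted p = 1.05e-46). Its level there split the strains: A/J averaged 331 CPM, 129S1/SvImJ 306, C57BL/6 273 and WSB/EiJ 196, and the other 4 strains 2.33 to 10.8 CPM. Dscaml1, a cell adhesion molecule, was lower in A/J oligodendrocytes (-1.65 ± 0.10), with 249, 183, 216 and 170 CPM. NOD/ShiLtJ was lower still with 101 CPM, and the other 6 strains averaged 651 to 1007 CPM. The interaction was -1.78 ± 0.11 for Dscaml1, 2.49 ± 0.18 for Faah and -1.84 ± 0.13 for Psat1, which was called in neurons and measured 91.9 to 126 CPM in A/J oligodendrocytes against 52.0 to 166 CPM. With the 7 strains as 1 group the calls of Cntn3 and Dscaml1 in oligodendrocytes were lost (adjusted p of 0.694 and 0.158).

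In astrocytes 186 of 8207 tested genes were higher in A/J (2.27%) and 72 lower (0.877%), 3.14% in all. Calls numbered 156 without the A/J mouse of batch 2, 147 without batch 1, 141 without batch 2 and 15 with the 7 strains as 1 group. At 7 genes (0.0853%) the A/J libraries lay outside the others' range. Nnat, an imprinted gene for a small membrane protein, was the lower one named by the rule: it measured 67.8, 51.1, 34.2 and 19.4 CPM in A/J and 69.6 to 500 CPM (median 274) in the others, a log2 fold change of -2.35 ± 0.31 (edgeR adjusted p = 2.69e-05). The A/J libraries did not overlap the others, though 129S1/SvImJ came close with a mean of 116 CPM. In Drd1+ neurons Nnat measured 42.9 to 135 CPM in A/J against 33.3 to 242 CPM and was not called there, in Drd2+ neurons or in oligodendrocytes. The difference between astrocytes and Drd1+ neurons was -1.92 ± 0.41 (edgeR adjusted p of the interaction = 0.0129). Nnat overlaps Blcap, and how counting treated strand is not given in the sources used here. Ttc12, a dynein arm assembly factor of cilia, measured 119, 80.1, 103 and 72.7 CPM in A/J and 0 to 62.5 CPM (median 24.8) in the others, a log2 fold change of 1.74 ± 0.19 (edgeR adjusted p = 6.07e-12). Apba1, a neuronal adaptor that binds the amyloid precursor protein, measured 339, 244, 251 and 274 CPM in A/J and 70.0 to 148 CPM (median 118) in the others, a log2 fold change of 1.27 ± 0.12. The other strains were alike at Apba1, with means of 96.3 to 132 CPM. Fars2, the mitochondrial phenylalanyl-tRNA synthetase, was higher by 1.22 ± 0.08, with 1869, 1543, 1752 and 1514 CPM in A/J and 284 to 1167 CPM in the others.

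The A/J difference in astrocytes differed from that in Drd1+ neurons at 251 of 14301 genes (1.76%), 160 more positive and 91 more negative, and at 115 without the A/J mouse of batch 2, 110 without all of batch 2 and 149 without batch 4. Hdac9, a class IIa histone deacetylase, measured 864, 872, 702 and 894 CPM in A/J astrocytes and 47.3 to 651 CPM (median 333) in the others, a log2 fold change of 1.28 ± 0.10, while in Drd1+ and Drd2+ neurons it was lower in A/J at -0.40 ± 0.08 and -0.51 ± 0.08. The interaction was 1.76 ± 0.13 (edgeR adjusted p = 4.61e-23). With the 7 strains as 1 group the Hdac9 calls were lost in astrocytes (adjusted p = 0.13), Drd1+ neurons (0.112) and Drd2+ neurons (0.0983). Hdac9 was also called higher in A/J macrophages, by 0.80 ± 0.16 (edgeR adjusted p = 0.000835). Its macrophage means were 967 CPM in A/J, 1113 in C57BL/6 and 947 in PWK/PhJ. Fars2 had an interaction of 1.20 ± 0.11 and did not pass the test in Drd1+ neurons (0.08 ± 0.05). Bcar3, an adaptor of focal adhesions, was higher in Drd1+ neurons by 1.09 ± 0.12 and lower in astrocytes at -0.83 ± 0.14, an interaction of -1.87 ± 0.18; the astrocyte call was lost with equal nuclei per library (adjusted p = 0.113). Psat1 had an interaction of -1.81 ± 0.17, with 77.1 to 120 CPM in A/J astrocytes and 64.9 to 172 CPM in the others. Of 22 astrocyte markers 0 were called (median -0.07), and of 8 GABA receptor genes 3 were higher and 0 lower (median 0.29), 2 and 0 without the A/J mouse of batch 2. Over all astrocyte genes tested 3.14% were called, 2.27% higher and 0.877% lower. Hmgcs1, an enzyme of cholesterol synthesis, was the 1 lower gene of 20 tested for lipid and cholesterol synthesis, at -0.95 ± 0.17, and lost its call with equal nuclei per library (adjusted p = 0.692).

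In macrophages 148 of 3858 tested genes were higher in A/J (3.84%) and 98 lower (2.54%), 6.38% in all. Calls numbered 166 without the A/J mouse of batch 2 and 22 with the 7 strains as 1 group. At 5 genes (0.13%) the A/J libraries lay outside the others' range. Whrn, a scaffold protein of hair cell stereocilia, measured 330, 326, 303 and 313 CPM in A/J and 0 to 244 CPM (median 67.8) in the others, a log2 fold change of 2.29 ± 0.21 (edgeR adjusted p = 3.38e-16). C57BL/6 was the closest strain with a mean of 199 CPM, and Whrn was not called in Drd1+ neurons (-0.53 ± 0.23). Ubash3b, a phosphatase that limits immune receptor signalling, measured 1452, 1578, 1344 and 1387 CPM in A/J and 495 to 1240 CPM (median 906) in the others, a log2 fold change of 0.69 ± 0.11 (edgeR adjusted p = 2.59e-07). Ifnar2, a chain of the type I interferon receptor, was higher by 0.92 ± 0.16 and Fchsd2, a regulator of endocytosis, by 0.65 ± 0.09, both lost with equal nuclei per library (adjusted p of 0.085 and 0.0543). Sall3, a zinc finger transcription factor, measured 37.7, 37.7, 36.3 and 45.6 CPM in A/J, 25 counts in all, and 60 to 289 CPM (median 136) in the others, a log2 fold change of -1.79 ± 0.29 (edgeR adjusted p = 1.06e-06).

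**Figure D5:**
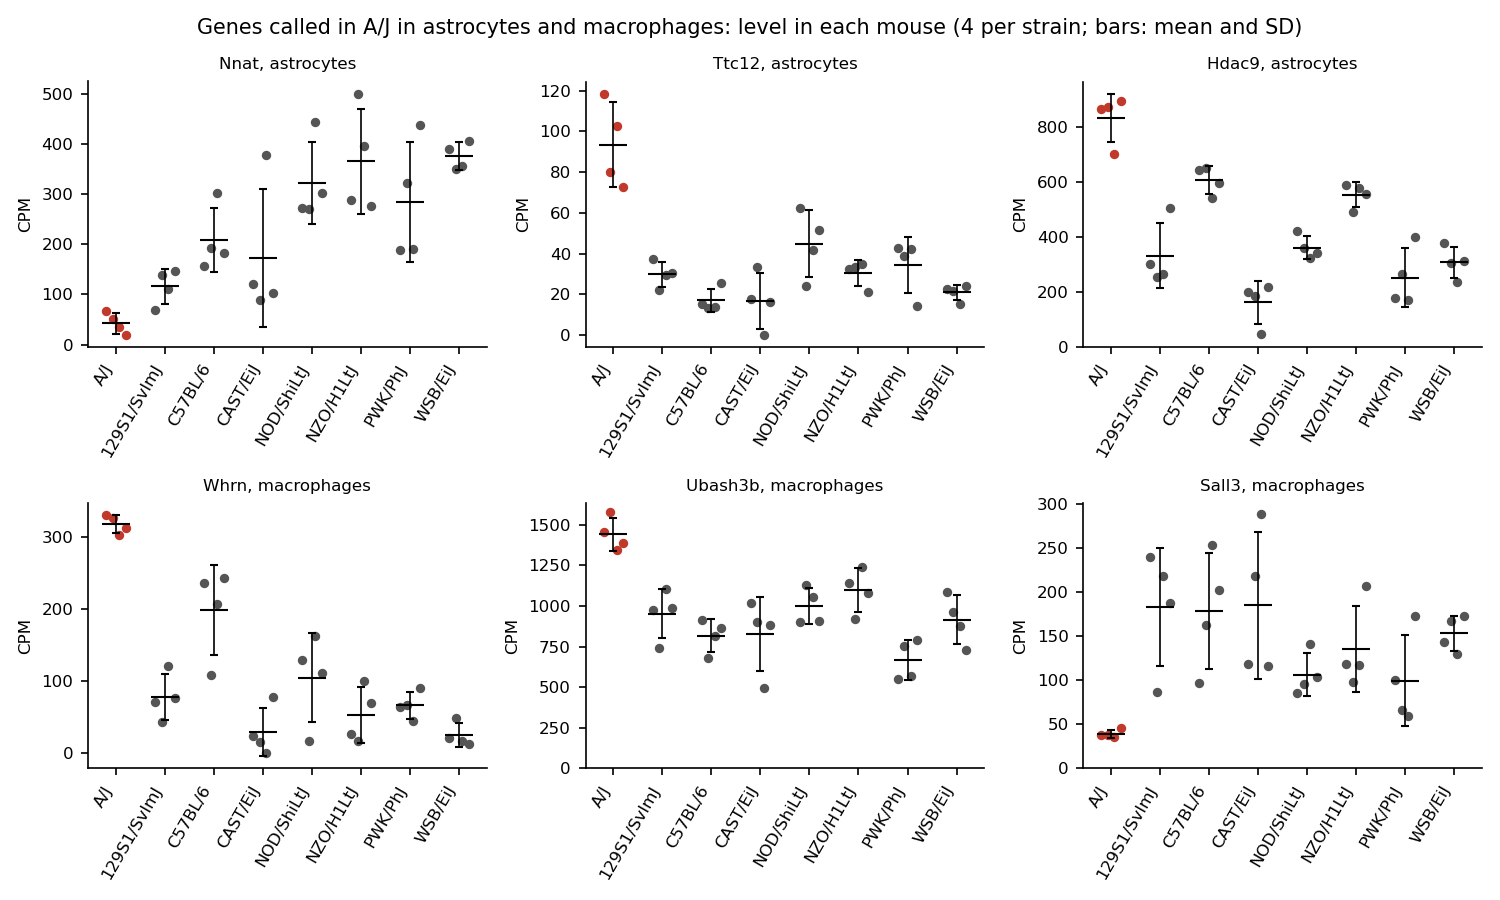
Levels in CPM (y axis, linear) of 3 genes in astrocytes (top) and 3 in macrophages (bottom), 1 point per mouse, by strain (x axis; A/J in red), with the mean and SD of the 4 mice of each strain. The A/J points lie below all others for Nnat and Sall3 and above all others for Ttc12, Hdac9, Whrn and Ubash3b.

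The A/J difference in macrophages differed from that in Drd1+ neurons at 175 of 14489 genes (1.21%), 107 more positive and 68 more negative, and at 120 without the A/J mouse of batch 2. Ccdc85a, a coiled-coil protein, measured 754, 631, 617 and 638 CPM in A/J macrophages; NZO/H1LtJ and PWK/PhJ averaged 581 and 723 CPM and the other 5 strains 3.89 to 21.8 CPM. Tafa2, a secreted chemokine-like protein, measured 358, 268, 218 and 293 CPM in A/J, with NOD/ShiLtJ at 437 CPM and the other 6 strains at 0 to 9.31 CPM. Ccdc85a and Tafa2 were thus high in A/J and in other strains that differed between the genes. The interactions were 4.19 ± 0.24 for Ccdc85a, 6.17 ± 0.36 for Tafa2, -3.0 ± 0.22 for Dock2 and 2.94 ± 0.23 for Sdk1, a cell adhesion molecule at 528 to 738 CPM in A/J and 7.14 to 659 CPM in the others. No Tafa2 count was found in CAST/EiJ, so its fitted values depend on the prior count. The macrophage calls of Ccdc85a, Tafa2 and Sdk1 were lost with the 7 strains as 1 group (adjusted p of 0.613, 0.537 and 0.508). Of 9 voltage-gated channel genes 4 were higher and 1 lower (median 0.56, against 0.02 over all genes), 3 and 1 of 10 without the A/J mouse of batch 2. Over all macrophage genes tested 6.38% were called, 3.84% higher and 2.54% lower. Kcnma1, the large-conductance potassium channel, was higher by 1.79 ± 0.13 and Cacna1a, a P/Q-type calcium channel, by 1.79 ± 0.16, where 129S1/SvImJ had similar means (808 and 675 CPM against 822 and 522 in A/J) and both calls were lost with the 7 strains as 1 group (adjusted p = 0.673 for each).

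Lists of genes of macrophages and their lysosomes were compared with all macrophage genes tested, of which 6.38% were called. The share called was 25% for lysosome and phagocytosis genes, 22.7% for microglia markers and 33.3% for border macrophage markers, given as a description with no test of the lists. Of 20 lysosome and phagocytosis genes 1 was higher and 4 lower (median -0.28), and 1 and 2 without the A/J mouse of batch 2. Gusb, the lysosomal beta-glucuronidase, measured 75.4, 72.1, 96.8 and 58.6 CPM in A/J and 78.6 to 375 CPM (median 151) in the others, a log2 fold change of -1.01 ± 0.23 (edgeR adjusted p = 0.00111, and 0.0507 without batch 4). Man2b1 was lower at -0.87 ± 0.18, with 66.0 CPM in batch 1 and 172 to 254 CPM in the other A/J mice, and lost its call with equal nuclei per library (adjusted p = 0.126) or the 7 strains as 1 group (0.132). Of 22 microglia markers 2 were higher and 3 lower (median -0.10), 1 and 1 without the A/J mouse of batch 2. Mertk, a receptor for the uptake of dying cells, was higher by 0.45 ± 0.10 and Selplg, a selectin ligand, lower at -0.66 ± 0.12, a call lost without the batch as a block (adjusted p = 0.223) or with the 7 strains as 1 group (0.0691); Mertk was lost only with the latter (0.149). C1qb, a chain of complement C1q, was lower at -0.87 ± 0.22 and lost its call without batch 4 (adjusted p = 0.244) or the A/J mouse of batch 2 (0.0606). The other higher marker, Fcrls, had a fitted difference of 0.79 ± 0.25 but a lower mean in A/J, 132 CPM against 255 CPM (median 55.2) in the others, and its sign turned with the 7 strains as 1 group (-0.84, adjusted p = 0.933). All 8 markers of border macrophages had lower means in A/J, with a sum of 47.5 to 195 CPM against 78.5 to 902 CPM, and 1 of the 3 tested was called, Stab1, lower at -1.07 ± 0.26 but not without batch 4 (adjusted p = 0.0854). Fewer border macrophages and less of these RNAs per nucleus cannot be told apart in these sums. Of 22 astrocyte markers 17 had higher means in A/J macrophages, with a sum of 4483 to 6461 CPM against 2641 to 10257 CPM. Of the 12 tested 2 were called higher (16.7%), Slc4a4 and Slc1a2, and 0 without the A/J mouse of batch 2. Slc1a2 measured 1136 CPM in that mouse and 521 to 613 CPM in the other A/J mice. The part of astrocyte RNA in these lists was not tested. Of 14 genes with known A/J variants 5 were tested in macrophages and 1 was called, Cdh23, higher by 0.82 ± 0.15. That call was lost with the 7 strains as 1 group (edgeR adjusted p = 0.798), and Cdh23 overlaps other annotated genes. A/J was not the highest strain at Cdh23: 129S1/SvImJ and NOD/ShiLtJ averaged 542 and 497 CPM, and A/J 435 CPM. In neurons, oligodendrocytes and astrocytes Cs, the citrate synthase, was tested and not called.

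Commd7 was called in both neuron clusters and not in oligodendrocytes (-0.12 ± 0.21) or astrocytes (-0.05 ± 0.28), where A/J measured 15.3 to 27.7 and 19.4 to 27.0 CPM, within the others' 0 to 40.9 and 6.06 to 71.0 CPM. Ccl27a was likewise called in both neuron clusters and not in oligodendrocytes (-0.05 ± 0.22) or astrocytes (-0.46 ± 0.28). The test of the difference from Drd1+ neurons passed for Commd7 in oligodendrocytes (-1.47 ± 0.22, edgeR adjusted p = 1.99e-07) and astrocytes (-1.31 ± 0.28, 0.000943). For Ccl27a it passed in oligodendrocytes (1.19 ± 0.25, edgeR adjusted p = 0.000463) and not in astrocytes (0.86 ± 0.32, 0.206).

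The make-up of the A/J samples was compared last. Of the 18 annotated clusters 0 differed in their share of nuclei after adjustment (exact permutation test of A/J labels within batches, two-sided, 4096 arrangements; the smallest p it allows is 0.000244). The nearest was the second Drd1+ cluster, 2.03% ± 0.79 (SD, n = 4) of nuclei in A/J and 2.96% ± 0.97 (n = 28) in the others (exact permutation p = 0.00952, adjusted p = 0.171). Drd1+ neurons made up 29.0% of A/J nuclei and 27.6% of the others', and macrophages 5.26% and 4.65%. Nuclei per mouse averaged 2459 in A/J and 1637 in the others (exact permutation p = 0.0217, adjusted p = 0.0928). Without batch 2, whose A/J mouse had 4416, the difference fell from 822 to 157 nuclei (exact permutation adjusted p = 0.417). The median counts per nucleus were 6811 and 6335 in Drd1+ neurons and 6238 and 5791 in Drd2+ neurons (adjusted p = 0.0928 for each by the same exact test). The A/J libraries of neurons were thus deeper on average, and drawing equal numbers of nuclei per library left 1413 calls in Drd1+ and 1232 in Drd2+ neurons.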

How the data were processed

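The authors profiled striatal nuclei with 10x Multiome, and the submitters' processing notes name Cell Ranger ARC 2.0.0, bcl2fastq 2.20.0.422 and the builds mm10 and GRCm38. The deposited matrices hold raw counts (UMIs) per gene and nucleus, not normalized, and the deposited annotation table (other values) gives strain and cluster per nucleus. Per the labels' protocols, the authors assigned strains with Demuxlet from RNA and from chromatin reads, removed doublets with DoubletFinder, kept nuclei with over 200 and under 7500 genes and under 15% mitochondrial counts, and removed further nuclei on biological grounds. No further filter or doublet caller was applied here.

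Counts were summed per batch, strain and cluster over annotated nuclei, filtered with filterByExpr, scaled by TMM and fitted with edgeR 4.0.16 (R 4.3.3, quasi-likelihood, Benjamini-Hochberg over all tested genes) with strain and batch as terms. Batch is the replicate number and marks mice pooled together per the labels, so it was a block. Deviations from strain means correlated within a batch at 0.183 in Drd1+ neurons, the highest of the 5 clusters, and at 0.0431 in astrocytes, the lowest. Between batches the value was -0.0601 in Drd1+ neurons, which is negative by construction because the deviations of a strain sum to 0. Interactions kept the mouse as block. Each SE is the absolute log2 fold change over the square root of the test's F value, not a separately fitted error. CPM are TMM-scaled, and marker sums use library totals. Shares and depth were compared by exact permutation within batch. The fits were tested on simulated data. The genes named were called genes of at least 10 CPM whose 4 A/J libraries lay outside the range of the others, ranked by fold (in Drd1+ neurons the first 8 each way, plus 2 each way with other symbols; elsewhere the first 5), the 4 smallest p of each interaction test, and called list members. Members and lists were chosen with earlier results of these data known. Promoters and gene positions are from RefSeq GRCm38.p6. Alternatives included DESeq2 1.42.0, RLE scaling, no filter, limma 3.58.1, 2 groups, equal nuclei and leaving out mice. The matrix of accessible regions by nuclei was not analysed here. Results of some genes that met the rules are not reported here.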

Additional observations from a re-analysis of the deposited data

Results flagged for a closer look

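In 10 of the 50 groups of 4 A/J values examined, 1 mouse lay far from the other 3, with a gap to its nearest neighbour, over the whole range, above Dixon's critical value for 4 values. Chance gives about 1 such group in 20. The ratio was 0.946 for nuclei per A/J mouse, where the mouse of batch 2 had 4416. In Drd1+ neurons it was 0.876 for Col11a2, 0.958 for Gm47515 and 0.833 for Ttc39b. In oligodendrocytes it was 0.913 for Sdk2 and 0.890 for Polr3e. In astrocytes it was 0.844 for Hdac9. In macrophages it was 0.891 for Ifnar2, 0.843 for Fchsd2 and 0.846 for Sall3. Several of these A/J ranges are narrow, such as Ttc39b at 26.6 to 28.9 CPM.

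The A/J difference differed between a cluster and Drd1+ neurons, by edgeR's test of the interaction, at 16 named entries, given as log2 differences. For Drd2+ neurons the values were -2.81 for A830012C17Rik, -0.48 for Hs3st4, -1.50 for Penk and 1.15 for Ftl1-ps1. In the fit of Drd1+ neurons alone A830012C17Rik passed the filter only with its A/J libraries, so its value rests on low Drd1+ levels. For oligodendrocytes they were 3.67 for Cntn3, -1.78 for Dscaml1, 2.49 for Faah and -1.84 for Psat1. For astrocytes they were 1.76 for Hdac9, -1.81 for Psat1, 1.20 for Fars2 and -1.87 for Bcar3. For macrophages they were 4.19 for Ccdc85a, 6.17 for Tafa2, -3.0 for Dock2 and 2.94 for Sdk1.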

How the results depend on the processing

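Of 2878 results of single genes under an alternative setting, 2323 kept their direction and side of the threshold, 552 kept only the direction, 1 newly passed and 2 reversed. The reversals were Cntn4 in astrocytes against the 5 strains other than CAST/EiJ and PWK/PhJ (log2 fold change 0.055, edgeR adjusted p = 0.987) and Fcrls in macrophages with the 7 strains as 1 group (-0.84, adjusted p = 0.933). Fitting 2 groups in place of 8 strains, so that the spread between strains counted as error, left 194, 145, 44, 15 and 22 calls in Drd1+ neurons, Drd2+ neurons, oligodendrocytes, astrocytes and macrophages. Equal nuclei per library (283, 262, 133, 23 and 24) left 1413, 1232, 263, 28 and 40, and a 2-fold minimum 361, 307, 192, 83 and 86. Leaving out a batch gave 1466 to 1937, 1170 to 1597, 484 to 648, 141 to 271 and 164 to 213 calls, and without the A/J mouse of batch 2 they were 1585, 1296, 502, 156 and 166. Without the replicate block they were 1625, 1385, 503, 200 and 183. The share of calls higher in A/J moved from 72.1% to 60% in astrocytes and from 60.2% to 45.5% in macrophages with 2 groups, and in macrophages to 77.1% without a filter and 70.0% with equal nuclei. The interaction calls with limma were 45 for Drd2+ neurons, 343 for oligodendrocytes, 66 for astrocytes and 106 for macrophages. Leaving out a batch or the A/J mouse of batch 2 gave 45 to 62 for Drd2+ neurons, 292 to 481 for oligodendrocytes and 110 to 203 for astrocytes, and for Drd2+ neurons there were 9 calls without the mouse as a replicate block. With a 2-fold minimum the calls against single strains in Drd1+ neurons were 356 (129S1/SvImJ), 417 (C57BL/6), 1234 (CAST/EiJ), 462 (NOD/ShiLtJ), 515 (NZO/H1LtJ), 1226 (PWK/PhJ) and 547 (WSB/EiJ). Of the cluster shares 1 passed as a share of neurons or non-neurons (the second Drd1+ cluster, exact permutation adjusted p = 0.0132), and 0 to 2 passed when a batch was left out. With the mean in place of the median, A/J exceeded the others by 532 and 540.2 UMIs per nucleus in Drd1+ and Drd2+ neurons (exact permutation adjusted p = 0.0435 for each). A fold minimum, equal nuclei and the spread between strains as error lower counts by construction, and for other settings the cause was not tested. Leaving out mice did not always lower them: astrocytes had 271 calls without batch 3, against 258 with all mice. Astrocyte and macrophage libraries were the shallowest, and genes not called there may differ below what their depth can show.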
